A study of Chlorella vulgaris with 6 samples.

Results

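The transcripts described here were higher in the mutant UV-715 of the green alga Chlorella vulgaris than in wild type and in the mutant EMS-25, while those last strains stood close to each other. They were chosen by the deposited expression values themselves: a mean over the 6 libraries of at least 30, a lower UV-715 value at least 1.5 times the highest of the 4 other values, and wild-type and EMS-25 means of which the higher was less than 25% above the lower. Of 18600 assembled features, 4891 reached this mean, 108 of these had both UV-715 values that far above the others, and 77 met all conditions. Of the 31 that dropped out at the last step, 17 had a higher mean in wild type and 14 in EMS-25. Because all 6 libraries entered the choice, the levels and ratios of the 77 members are a description and carry no test.

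All 3 strains were SAG 211-12, each with 2 libraries that the labels call biological replicates. Wild type carried no mutagen treatment in its label. UV-715 was labelled a UV mutant and EMS-25 an EMS mutant. The protocol describes irradiation of plated cells at 254 nm, 24 h in the dark and picking of single colonies. For EMS-25 the labels give the mutant's name and no protocol of its own. RNA came from stationary-phase cultures of 14 days, grown in a nitrate medium at 25 °C in continuous light, and polyadenylated transcripts were sequenced. The labels do not say that each library had its own culture, so the spread between libraries may be partly technical.

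Ultraviolet light at short wavelengths links neighbouring pyrimidines in DNA, and ethyl methanesulfonate (EMS) alkylates guanine. Both leave lasting base changes when the lesions are copied or repaired wrongly, so a mutant isolate can carry many changes at once. In stationary phase, when nutrients run low, Chlorella cells slow their division and store carbon as starch and as triacylglycerol in lipid droplets. The series title calls both mutants high-lipid producers. The files pair no feature with a gene name, so the transcripts are described by level, by strain and by their place in the assembly. A feature ID in the form written by the Trinity assembler names a cluster of contigs that share sequence, a component within it and a gene within the component.

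The members together held 0.878% and 0.871% of the summed signal in the wild-type libraries (replicates 1 and 2), 0.808% and 0.806% in those of EMS-25, and 1.82% and 1.80% in those of UV-715. The UV-715 share was thus 1.81% ± 0.013, against 0.874% ± 0.005 for wild type and 0.807% ± 0.001 for EMS-25 (mean ± SD, n = 2 each). The most abundant member alone held 15.4% of the members' UV-715 signal and the 10 most abundant held 53.3%. Without that most abundant member, the shares were 1.53% ± 0.002 for UV-715, 0.749% ± 0.003 for wild type and 0.703% ± 0.008 for EMS-25. The median member stood at 114 and 108 for UV-715, at 54.2 and 52.0 for wild type and at 50.0 and 49.1 for EMS-25. In rank among all features of a library, where 1 is the highest value, the median member moved from 2969 and 3054 for wild type and 3176 and 3192 for EMS-25 to 1412 and 1448 for UV-715.

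**Figure D1:**
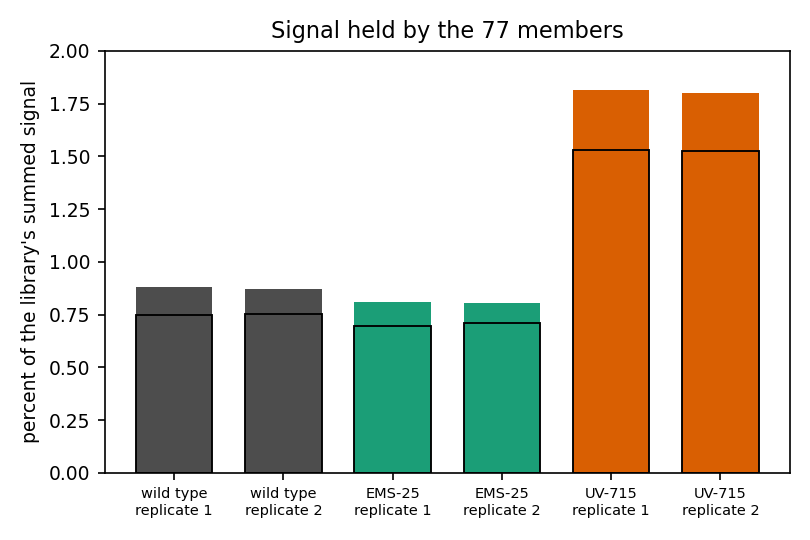
Percent of each library's summed signal held by the 77 members (filled bars), and the same without the most abundant member (black outlines), for the 2 libraries of each strain. Both UV-715 bars stand at about 1.8%, and the 4 other bars lie between 0.806% and 0.878%.

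Most of these transcripts were moderately higher, near a doubling. The UV-715 mean over the mean of the 4 other libraries had a median of 2.07 and ran from 1.58 to 5.49. It was at least 2 in 42 members, at least 3 in 11 and at least 4 in 4, and under 2 in 35. Against wild type alone the median ratio was 2.05 (range 1.52 to 5.75), and against EMS-25 alone 2.14 (range 1.55 to 5.66). Between wild type and EMS-25, which the rule held within 25% of each other, the median difference was 1.11-fold, and 52 members had the higher mean in wild type and 25 in EMS-25. The same split over all features was not worked out, so no lean is read from these counts.

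The steepest member was TRINITY_DN11059_c0_g1. Its values were 20.5 and 24.5 for wild type, 22.3 and 20.1 for EMS-25, and 119 and 120 for UV-715. The lower UV-715 value was 4.88 times the highest of the others, and the UV-715 mean was 5.49 times their mean. It was the only feature of its cluster.

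TRINITY_DN673_c0_g1 followed, also alone in its cluster. It had 26.1 and 25.2 for wild type, 21.0 and 20.3 for EMS-25, and 115 and 104 for UV-715, a UV-715 mean of 4.73 times that of the others. Wild type stood 1.24-fold above EMS-25, close to the limit of the rule, and both lay far below UV-715.

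The third in this order had 20.4 and 25.4 for wild type, 31.3 and 20.7 for EMS-25 and 119 and 144 for UV-715 (UV-715 over the others, 5.38). The fourth had 17.8 and 12.6 for wild type, 13.5 and 17.6 for EMS-25 and 68.8 and 61.7 for UV-715 (4.24). These 4 members were the ones at or above 4-fold, and all had low levels outside UV-715, with strain means from 15.2 to 26.0. Those from the fifth to the tenth place lay close together, with ratios up to 3.28. Their UV-715 means ran from 74.5 to 209.

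Among the abundant members the differences were smaller. The most abundant had 1336 and 1180 for wild type, 1132 and 981 for EMS-25 and 2837 and 2626 for UV-715, so that UV-715 stood 2.36-fold above the mean of the others. The next had 531 and 478 for wild type, 408 and 465 for EMS-25 and 1061 and 983 for UV-715 (2.17-fold). In both, the EMS-25 libraries lay somewhat below those of wild type and the UV-715 libraries lay above all of them.

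The third most abundant had 589 and 566 for wild type, 561 and 560 for EMS-25 and 934 and 896 for UV-715, with a ratio of 1.61. For the fourth to the tenth, UV-715 means ran from 874 down to 419 and the ratios were 2.09, 2.00, 1.83, 2.22, 1.65, 1.88 and 2.42. By level, 34 members had a UV-715 mean under 100, 30 from 100 to under 300, 11 from 300 to under 1000 and 2 of 1000 or more. The highest ratio was 4.24, 5.49, 2.42 and 2.36 in these bands, and the median ratio 2.01, 2.23, 1.90 and 2.27. The wide ratios were thus found at UV-715 means under 300, while the medians of the bands stayed close.

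**Figure D2:**
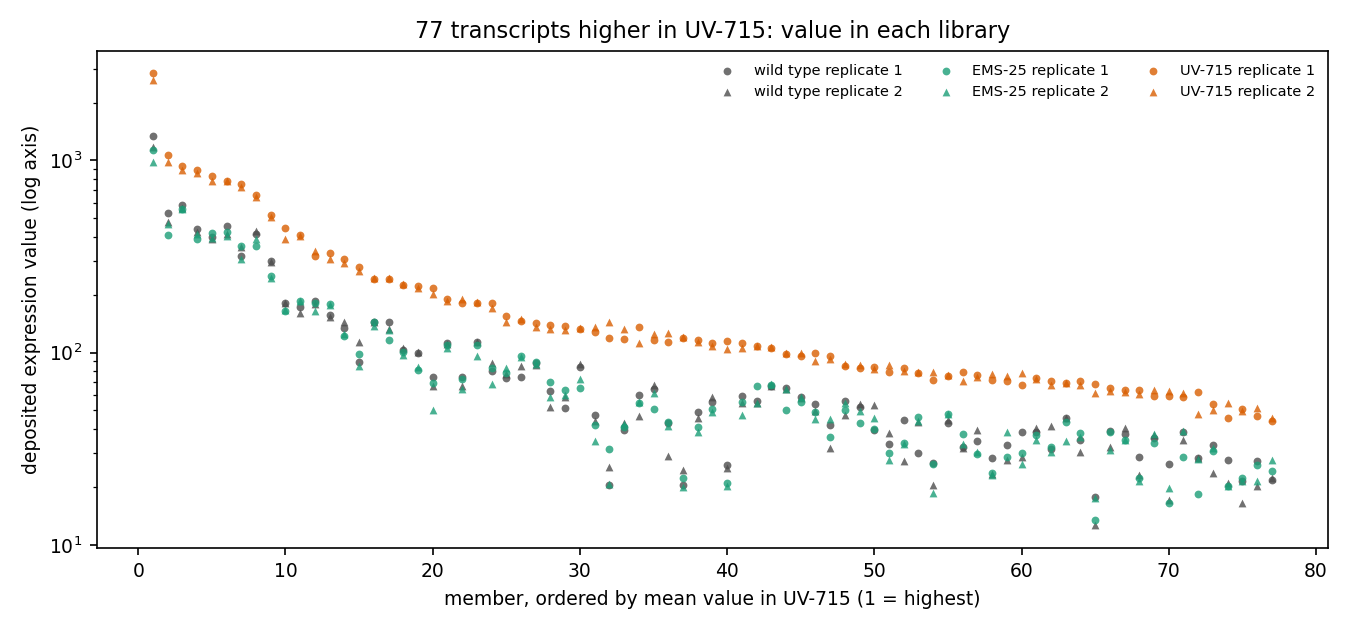
Deposited value (log axis) of each of the 77 members in each of the 6 libraries, with members ordered by their UV-715 mean; circles are replicate 1 and triangles replicate 2. The UV-715 points lie above the 4 others in each member, as the rule required, and the gap is widest among members with a UV-715 mean under 300.

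Replicates of a strain mostly lay close together. The UV-715 libraries were under 1.1-fold apart in 64 members, with a median of 1.04-fold. The widest pair, 62.5 and 48.0, was 1.302-fold apart, and that member had 28.2 and 28.1 for wild type and 18.4 and 27.8 for EMS-25. The wild-type libraries were 1.09-fold apart at the median and 1.64-fold at most, and the EMS-25 libraries 1.08-fold and 1.51-fold. Over all features with a mean of at least 30, the median was 1.07-fold in UV-715, 1.09-fold in wild type and 1.08-fold in EMS-25. The rule used the lower UV-715 value and the highest other value, so it favoured members whose libraries agreed. Library depth is unknown, but replicate 2 libraries listed 2826 to 4177 features at 0 and replicate 1 libraries 1376 to 1485, while no member was listed at 0 in any library.

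The conditions of the rule cut through a continuous range. The members nearest to the 1.5-fold limit had ratios of the lower UV-715 value to the highest other value of 1.506, 1.508 and 1.511, and the features just outside had 1.489, 1.488 and 1.487. One of those outside was more abundant than any member, at 2542 and 2714 for wild type, 2608 and 2697 for EMS-25 and 4037 and 4042 for UV-715. At the level limit, means of 30.3, 30.9 and 31.6 lay inside and 27.7, 27.3 and 26.6 outside. For the distance between wild type and EMS-25, 1.246, 1.244 and 1.243 lay inside while outside they began at the limit itself and went on to 1.251 and 1.255. The count of 77 was 25 with a 2-fold limit and 163 with a 1.3-fold limit. With the libraries set to the same sum it was 83, of which 73 were among the 77. The mirrored rule found 82 features lower in UV-715, and the same rule applied to EMS-25 found 24 that were higher there.

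**Figure D3:**
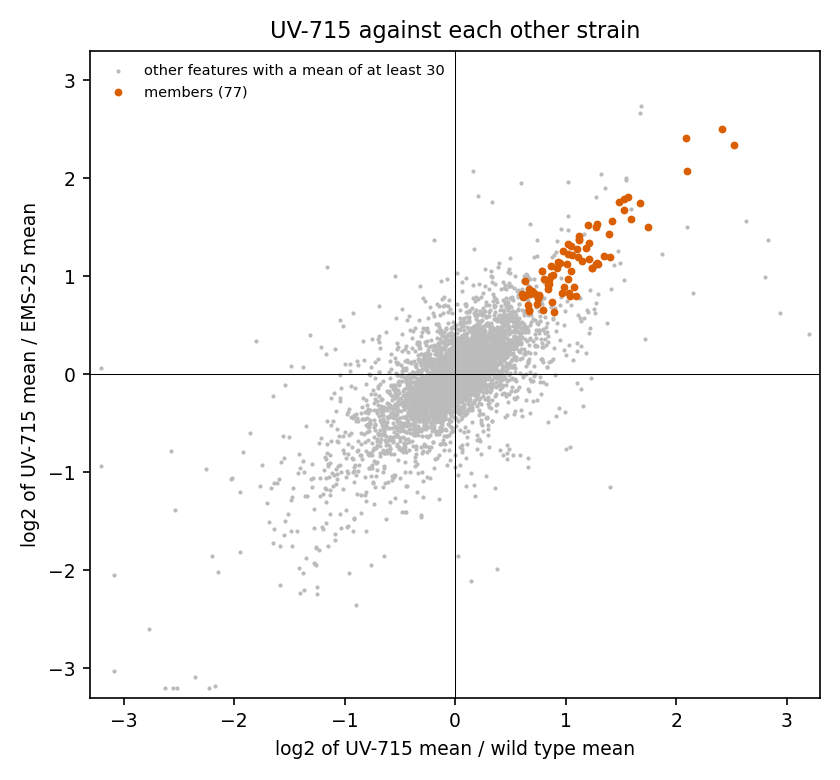
Log2 ratio of the UV-715 mean to the wild-type mean (horizontal) and to the EMS-25 mean (vertical) for features with a mean of at least 30; members are orange and the others grey. Both axes share the UV-715 libraries, 7 features beyond 3.2 are drawn at the edge, and 5 at 0 in a strain are left out. The members fill the upper right, from 1.52 to 5.75 times wild type, and border on grey points without a gap.

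For reference, limma was run on log2 of the value plus 1, with all strains in the same fit, over the 18096 features that reached 1 in 2 or more libraries. Calls were made below an adjusted p of 0.05 (Benjamini-Hochberg, over all features). Of all features, 1.87% were called higher in UV-715 against wild type and 1.88% against EMS-25. Of the members, 72 of 77 were called higher against wild type and 74 against EMS-25. Their median log2 fold changes were 1.02 and 1.09, where all features had 0.03 and 0.01. These calls rest on the values that chose the members and both comparisons share the UV-715 libraries, so nothing is read from them. Leaving out any library lowered the number of calls both among the members and over all features. Those counts are likewise not read as a result about the members.

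The members came from 76 clusters and 77 components, so with the exception of 1 cluster each was the only member of its cluster. That exception was a cluster of 30 features with 2 members in different components. One had 33.6 and 38.2 for wild type, 29.9 and 27.7 for EMS-25 and 79.5 and 85.8 for UV-715. The other had 144 for both wild-type libraries, 145 and 137 for EMS-25 and 242 and 243 for UV-715. Of the members, 56 (72.7%) were alone in their component and 36 (46.8%) alone in their cluster. Of the 4814 other features that reached a mean of 30, 66.6% and 41.6% were. How often 77 features of that level would share a cluster or a component was not worked out. Gene number 1 of the component was carried by 69 members (89.6%), against 82.0% of those others.

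Neighbours here are the other features of a component that holds a member. They did not choose the members, but the rule was applied to these features too and each failed it. Fragments may also be divided among the features of a component, so their values need not be independent of the member's values. Tests of these features come from the fit over all features and are read with both limits in mind. In the 21 components that held more than 1 feature there were 25 such neighbours, of which 24 could be tested. No component held a second member, so these are all the other features of those components. Against wild type 1 was called higher in UV-715 and 1 lower by limma, and against EMS-25 again 1 higher and 1 lower. Of all features tested, 2.34% were called lower in UV-715 against wild type and 2.77% against EMS-25. With 24 features, 1 call is 4.17%, too few to set against the background. At an unadjusted p under 0.05, 8 of the 24 (33.3%) were higher and 3 (12.5%) lower against wild type, where 10.2% and 9.86% of all features were. Against EMS-25, 5 (20.8%) were higher and 1 (4.17%) lower, where 9.20% and 9.77% of all features were. Values above 0 were found for 12 of 24 against wild type and for 18 of 24 (75.0%) against EMS-25, and for 51.9% and 50.5% of all features. These shares were not tested against each other. Without the intensity trend in the fit, 0 neighbours were called by limma in either comparison. The median log2 fold change of the neighbours was 0.05 against wild type and 0.41 against EMS-25. For the 21 neighbours that averaged 5 or more over the 6 libraries, these medians were 0.18 and 0.22. The gap between both medians thus depended on neighbours of very low level, and no difference between the comparisons is read from it.

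TRINITY_DN6068_c0_g1 was the neighbour that fell. It had 47.0 and 49.6 for wild type, 46.7 and 40.6 for EMS-25, and 17.9 and 21.6 for UV-715. The fall was 1.26 on the log2 scale of the value plus 1 against wild type, a log2 fold change of -1.26 with an SE of 0.14 (adjusted p 0.0106 by limma), and -1.11 against EMS-25 (SE 0.14, adjusted p 0.0148). The member beside it had 44.7 and 27.2 for wild type, 33.7 and 33.3 for EMS-25 and 83.5 and 80.2 for UV-715.

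The member thus held 80.6% of the component's signal in UV-715 and 42.7% in wild type. The component sums were 91.8 and 76.8 for wild type, 80.4 and 74.0 for EMS-25 and 101 and 102 for UV-715, a narrower difference than that of the member alone. Whether fragments were divided differently between both features in UV-715 was not tested. The call of the neighbour against wild type was lost without wild type replicate 2 (adjusted p 0.0758 by limma) and without UV-715 replicate 1 (0.0584). Against EMS-25, leaving out any of the 4 libraries compared ended the call (0.0679 and 0.0506 for UV-715 replicates 1 and 2, 0.0891 and 0.0726 for those of EMS-25). A feature in another component of this cluster had 156 for both wild-type libraries, 56.9 in both of EMS-25 and 58.2 and 61.7 for UV-715. Against wild type it was lower in UV-715 by limma (log2 fold change -1.37 with an SE of 0.07, adjusted p 0.00128), and the log2 difference from EMS-25 was 0.07 (adjusted p 0.637).

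In 2 other components a neighbour was called higher in 1 of the comparisons. Beside the member with 74.5 and 66.9 for wild type, 73.2 and 64.5 for EMS-25 and 181 and 190 for UV-715, the neighbour had 15.3 and 11.5, 21.9 and 24.2, and 44.3 and 40.3. Its log2 fold change was 1.599 against wild type (SE 0.19, adjusted p 0.0118 by limma) and 0.85 against EMS-25 (adjusted p 0.077). The first call was lost without either UV-715 library (0.0858 and 0.0847).

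The other component held 3 features, among them the seventh most abundant member. That member had 317 and 354 for wild type, 359 and 307 for EMS-25 and 757 and 728 for UV-715. Its less abundant neighbour was called in neither comparison. It had 75.8 and 23.2 for wild type, 66.4 and 82.5 for EMS-25 and 129 and 108 for UV-715. The more abundant neighbour had 284 and 218 for wild type, 172 and 152 for EMS-25 and 467 and 372 for UV-715. By limma the difference from EMS-25 was called (log2 fold change 1.36 with an SE of 0.16, adjusted p 0.0111), and that from wild type was not (0.74, adjusted p 0.073). Leaving out UV-715 replicate 1 ended the call (0.0505), as did leaving out EMS-25 replicate 1 (0.0612) or 2 (0.087).

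**Figure D4:**
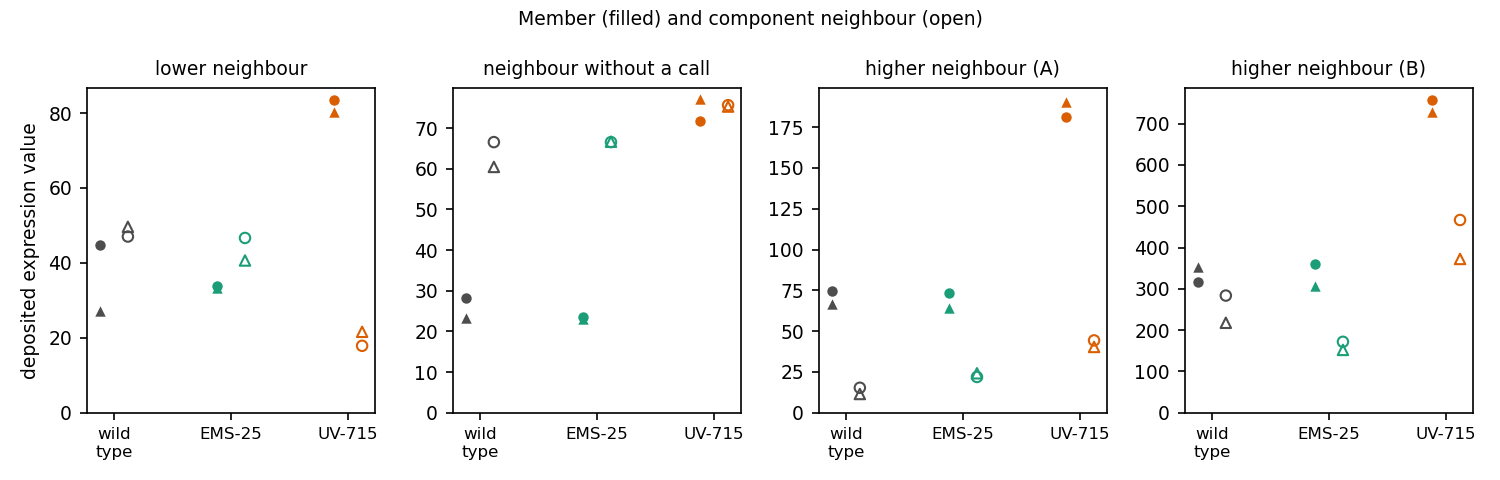
Deposited values of a member (filled) and of its most abundant component neighbour (open) in 4 components, by strain; circles are replicate 1 and triangles replicate 2. In the first panel the neighbour falls to 17.9 and 21.6 for UV-715. In the second panel and in panels A and B it stands highest in UV-715, and in the second it was called in neither comparison.

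Sums over the 21 components, which contain the members and are given as a description, kept both UV-715 values above the 4 others in 20 and at 1.5 times or more in 14. The median UV-715 to wild-type ratio of these sums was 1.68 (range 1.13 to 5.98). In the component that lost the order, the member had 33.1 and 23.6 for wild type, 30.7 and 31.8 for EMS-25 and 54.1 and 50.0 for UV-715. Its neighbour had 24.8 and 21.9 for wild type, 25.3 and 21.2 for EMS-25, and 27.2 and 1.26 in the UV-715 libraries, which thus differed from each other. The sum there was 81.3 and 51.2 for UV-715 against 57.9 and 45.4 for wild type. Over the 40 clusters with more than 1 feature, the sums kept UV-715 above the others in 34 and at 1.5 times in 17, with ratios to wild type from 0.672 to 3.26.

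A wider circle of neighbours, in the same cluster but in another component, was examined after the values had been seen. Of 145 such features 138 could be tested. The largest clusters held 30, 26 and 18 features, so many of these neighbours came from a few clusters. Against wild type 9 were called higher in UV-715 (6.52%) and 1 lower, and against EMS-25 8 were higher (5.80%) and 4 lower. With the 2 members that share a cluster counted as neighbours of each other, 11 (7.86%) and 10 (7.14%) were higher. Of all features, 1.87% and 1.88% were. The rule chose those 2 for being higher in UV-715, so nothing is read from the added calls. Calls gather among abundant features. Of the 50 cluster neighbours with a mean of 30 or more, 7 were called higher in each comparison (14.0%), while 1 was lower against wild type (2.0%) and 4 against EMS-25 (8.0%). Of all 4814 features at that level that were no members, these 50 included, 4.74% were called higher and 7.44% lower against wild type, and 4.49% and 8.64% against EMS-25. The median log2 fold change of these 50 was 0.05 against wild type and -0.05 against EMS-25. The 9 became 3 without either UV-715 library, and the 8 became 4 without either of these or without EMS-25 replicate 2.

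**Figure D5:**
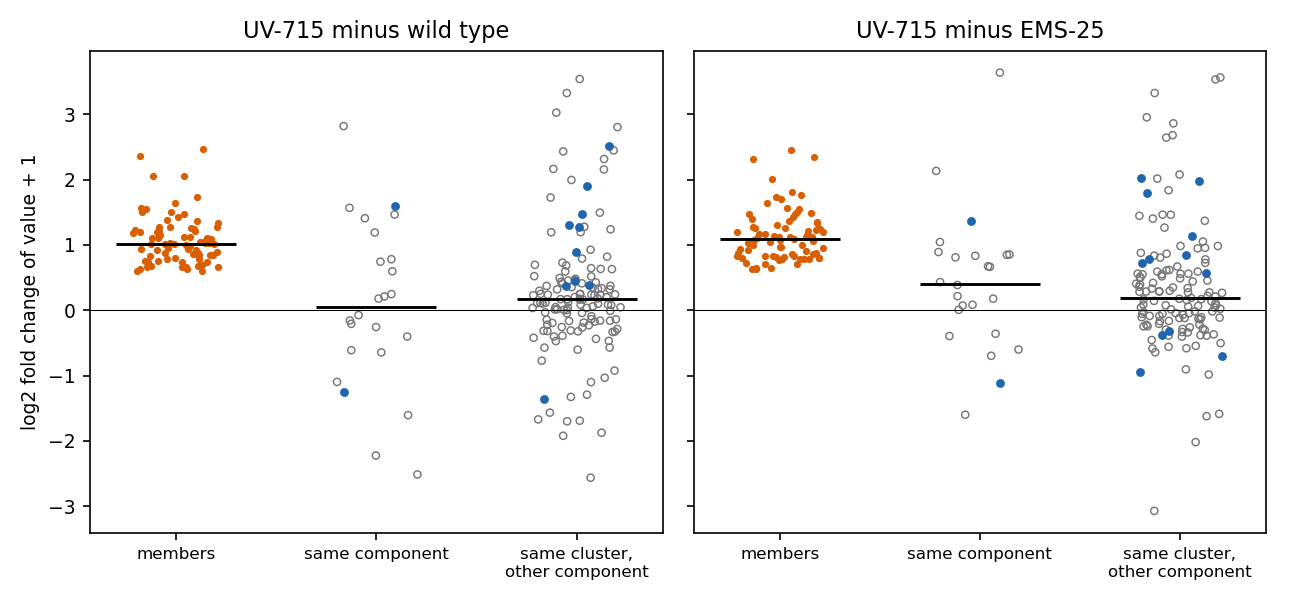
Log2 fold change of the value plus 1 of UV-715 against wild type (left) and EMS-25 (right) for the members (orange), for features of the same component and for features of the same cluster in another component. Filled blue points were called by limma, open points were not, and black lines are medians. The neighbours spread to both sides of 0, with medians of 0.05 and 0.17 on the left and 0.41 and 0.18 on the right.

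Some of these cluster neighbours stood higher beside a leading member. Those described here were picked after their values were seen, and others beside leading members did not rise. Beside the third member by steepness, a neighbour had a log2 fold change of 0.001 against wild type and -0.14 against EMS-25. Another there was called higher than wild type (0.37, adjusted p 0.017 by limma) and lower than EMS-25 (-0.37, adjusted p 0.0156). Each of these calls was lost with any of the 4 libraries compared left out. Both were also lost without the intensity trend (adjusted p 0.289 and 0.305 by limma). Beside the second most abundant member, a neighbour had 81.9 and 77.7 for wild type, 102 for both EMS-25 libraries, and 226 and 222 for UV-715. It was higher than wild type by a log2 fold change of 1.48 (SE 0.06, adjusted p 0.000692 by limma) and than EMS-25 by 1.13 (SE 0.06, adjusted p 0.00107). Neither call was lost with any library left out, and the second was lost without the intensity trend (0.0511).

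In the cluster of the most abundant member, the neighbour had 296 and 279 for wild type, 420 and 463 for EMS-25 and 511 and 556 for UV-715. Its log2 fold change was 0.89 against wild type (SE 0.07, adjusted p 0.00353 by limma) and 0.27 against EMS-25 (adjusted p 0.108). The call against wild type held with any library left out and was lost without the intensity trend (0.103). The EMS-25 values of this neighbour lay above wild type, and those of the member below it.

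The eighth member by steepness had 74.8 and 66.9 for wild type, 69.5 and 50.0 for EMS-25 and 218 and 201 for UV-715. A cluster neighbour with more signal had 210 and 177, 143 and 125, and 504 and 432. Its log2 fold changes were 1.27 (SE 0.12, adjusted p 0.0065 by limma) and 1.80 (adjusted p 0.00216), and both calls held with any library left out. Without the intensity trend the first was lost (0.088). This neighbour was no member because its wild-type and EMS-25 means, 193 and 134, lay too far apart.

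Beside the fourth member by steepness, a neighbour had 28.4 and 35.8 for wild type, 19.5 and 19.6 for EMS-25 and 78.4 and 82.1 for UV-715. It differed from EMS-25 (log2 fold change 1.98, adjusted p 0.00229 by limma) with any library left out. From wild type (1.304, adjusted p 0.00873) it was not called once UV-715 replicate 1 or 2 (0.0621 and 0.0832) or the intensity trend (0.0749) was left out. It too was kept out by the distance between its wild-type and EMS-25 means, 32.1 and 19.5. Beside the tenth, a neighbour of lower level had 7.61 and 7.18 for wild type, 12.5 and 9.31 for EMS-25 and 46.1 and 47.9 for UV-715. Its log2 fold changes were 2.52 (adjusted p 0.00558 by limma) and 2.03 (0.00959). Leaving out UV-715 replicate 1 or 2 ended both calls (0.0591 and 0.0719 for the first, 0.0842 and 0.116 for the second), and the second also ended when EMS-25 replicate 2 was left out (0.0579).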

How the data were processed

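The deposited table holds an expression signal per assembled feature and library. Its values have decimals and library sums between 970974 and 1029717, as TPM values would have after a further scaling between libraries by the authors, so no count model was used. Per the submitters' processing notes, FastQC 0.11.5, Trimmomatic 0.32, RSEM and edgeR were used, without stated roles. How features were assembled is not stated in the sources used here, and depth is unknown. Per the labels' protocols, reads were paired, of 75 bp.

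Membership was computed in Python 3.11.15 (pandas 2.3.3, numpy 2.4.6, matplotlib 3.10.9). Values plus a pseudocount of 1 were fitted on the log2 scale by limma 3.58.1 (R 4.3.3). The model had strain alone, a trend of variance with intensity, 2.66 prior and 3 residual degrees of freedom, and two-sided tests. The fit was tested on simulated data with known changes. The p-values measure only how these libraries vary.

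The members and lists were chosen with earlier results of these data known. IDs are printed for the 2 members with the highest ratio of the lower UV-715 value to the highest other value, and for component neighbours with a mean of at least 5 called lower against both other strains. That part of the rule allowed 2 and found 1. Other features are described by rank or by their place beside a member, and those in the wider clusters were chosen after their values were seen. Alternatives covered the limits of the rule, the scaling, the pseudocount, the filter, the trend, the samples fitted, a replicate block and each library left out.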

Additional observations from a re-analysis of the deposited data

Results flagged for a closer look

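TRINITY_DN6068_c0_g1, the component neighbour that fell, was picked because it was called lower in UV-715 against both other strains. Its log2 difference of UV-715 from EMS-25 was -1.11 (adjusted p 0.0148 by limma). It was lower in 2 of 2 UV-715 libraries than in both of EMS-25. The choice fixed this call, so it is no further test of a difference between the mutants. The call was lost without the intensity trend (adjusted p 0.0919 by limma) and, as described above, with a library of either mutant left out. The log2 difference ran from -1.24 to -0.98 with a library left out.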

How the results depend on the processing

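The number of members was 123 with a level minimum of 10 and 27 with 100, 163 with a fold limit of 1.3 and 25 with 2, and 30 with wild type and EMS-25 held within 1.1-fold. Leaving out a library gave 77 to 96. Calls in UV-715 against wild type (762) were 170 without the intensity trend and 489 in a fit of both strains alone, and against EMS-25 (841) 252 without the trend. Leaving out a library gave 200 to 619 and 245 to 743. The limma fit with a replicate block gave 658 and 712. Among features with a mean of at least 30, same-numbered libraries had deviations correlated at -0.08 to 0.14 between strains, and the numbers were not taken as pairs. Features below that level were not part of this check, and replicate 2 libraries listed more features at 0 in each strain.

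Component neighbours called lower (1 in each comparison) were 0 without the trend and 0 to 1 with a library left out. Those called higher (1 in each) were 0 without the trend and, with a library left out, 0 to 2 against wild type and 0 to 1 against EMS-25. Against wild type they were 2 with equal sums and 2 with the replicate block, and against EMS-25 2 in the fit of both strains alone. Cluster neighbours called higher against wild type (9) were 3 without the trend and 3 to 9 with a library left out. Those called lower (1) were 4 with the replicate block and 1 to 2 with a library left out. Against EMS-25, the 8 higher were 4 without the trend and 4 to 10 with a library left out, and the 4 lower were 0 and 1 to 3. The cause of these shifts was not tested, beyond the fewer samples in some fits. With a library left out, the lone library of a strain is assumed to vary like the others.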

Other observations

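A cluster of 26 features held a member and a neighbour that stood apart in EMS-25 instead. That neighbour had 87.9 and 94.9 for wild type, 91.5 and 91.8 for UV-715 and 185 and 169 for EMS-25, and UV-715 was lower than EMS-25 by a log2 fold change of -0.94 (SE 0.07, adjusted p 0.00312 by limma). The call held with any library left out and was lost without the intensity trend (0.0814). The member of that cluster had 30.05 and 43.6 for wild type, 46.1 and 44.3 for EMS-25 and 78.5 and 79.1 for UV-715.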
